A study of Mus musculus with 6 samples.

Results

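The cytosolic ribosomal protein genes were taken as the protein-coding mouse genes whose symbol is Rpl or Rps followed by a number, with an optional a, l or x and an optional final 1, together with Rplp0, Rplp1, Rplp2 and Rpsa. This gave 84 of 21887 protein-coding genes, of which 52 encode or are named after proteins of the large ribosomal subunit and 32 of the small subunit. Among the 84 are 7 paralogs or like-named genes (Rpl3l, Rpl7l1, Rpl10l, Rpl22l1, Rpl32l, Rpl39l and Rps27l).

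Each cytosolic ribosome is built from ribosomal RNA and 1 copy or a few copies of each ribosomal protein, and growing cells make these proteins in matched amounts from genes scattered over the genome. The promoters of these genes are known for a sharply placed start inside a pyrimidine tract, the 5′ terminal oligopyrimidine (TOP) motif, through which mTOR signalling controls translation of their mRNAs. Growth signals in vascular smooth muscle cells, angiotensin II among them, act in part through mTOR and S6 kinase.

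Arid3a, a transcription factor that binds AT-rich DNA through its ARID domain, was profiled by CUT&Tag. There an antibody tethers a transposase to chromatin where the protein sits, and the short pieces it releases are sequenced. Of the peak lists, 3 came from primary mouse vascular smooth muscle cells transfected with siRNA against Arid3a. They are labelled si-Arid3a#1, #2 and #3, 1 library each, and are called siRNA-labelled 1 to 3. Whether #1, #2 and #3 stand for different siRNAs or for replicates of 1 siRNA was not established here. A further 3 came from the same kind of cells given a negative control (NC-labelled 1 to 3). Per the labels each assay used 10000 cells and the siRNA was left on for 24 h. An angiotensin II model of aortic aneurysm is described for these cells, but the labels do not say which libraries had angiotensin II, nor the strain or age of the mice, nor whether libraries of a group were separate cultures, so p-values measure only the spread between these libraries. No library made with a control antibody was used here.

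The lists held 43834 to 51682 peaks in the siRNA-labelled and 47789 to 50047 in the NC-labelled libraries. Background coverage was 0.475 to 0.538 fragments per base in the siRNA-labelled and 0.621 to 0.673 in the NC-labelled libraries, so coverage and group cannot be told apart. The peaks inside each of the 6 lists are named after a library of the opposite group, and every direction given here would turn round if those names and not the sample labels were right. Of 8 smooth muscle marker genes 4 had a gene-end peak in all 6 libraries, and so did 2 of 4 fibroblast markers (Col1a1 and Dcn), against 0 of 5 endothelial and 0 of 5 immune markers. The immune markers had none in any library, and peaks at these genes did not set smooth muscle apart from fibroblasts. The Arid3a gene itself had a gene-end summit of 19, 22 and 34 fragments in siRNA-labelled libraries 1 to 3 and of 35, 36 and 41 in NC-labelled libraries 1 to 3, a scaled log2 difference of -0.31 ± 0.18 (SE) with an adjusted p of 0.58 in limma. A peak at a gene measures where the antibody signal lies and not how much Arid3a transcript is left, so it does not check the knockdown.

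A gene was counted as having a peak in a library if at least 1 bp of a peak lay within 1000 bp of either end of the gene. By that measure 72 of the 84 ribosomal protein genes (85.7%) had a gene-end peak in all 6 libraries, against 44.0% of all protein-coding genes. The large subunit gave 44 of 52 and the small subunit 28 of 32. No peak in any library was found at 5 members, against 42.8% of all protein-coding genes, and a further 7 had one in 1 to 5 libraries, against 13.2%. Without the 7 paralogs and like-named genes, 68 of 77 had a peak in all 6 libraries. Counting peaks anywhere in the gene as well, a choice made after these values were seen, added Rps2 and Rpl17 and gave 74 of 84 members (88.1%), against 55.7% of all protein-coding genes.

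Library by library, 76, 75 and 78 members had a peak in siRNA-labelled libraries 1 to 3, and 76, 78 and 78 in NC-labelled libraries 1 to 3. The group means were 76.3 ± 1.53 and 77.3 ± 1.15 members (SD, n = 3 each), which differ by less than the spread between libraries. No member had a peak in all libraries of 1 group and in none of the other. Of all 21887 protein-coding genes, 20 had a peak in the siRNA-labelled libraries alone and 37 in the NC-labelled libraries alone. A count of 0 among 84 members lies near that share.

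**Figure D1:**
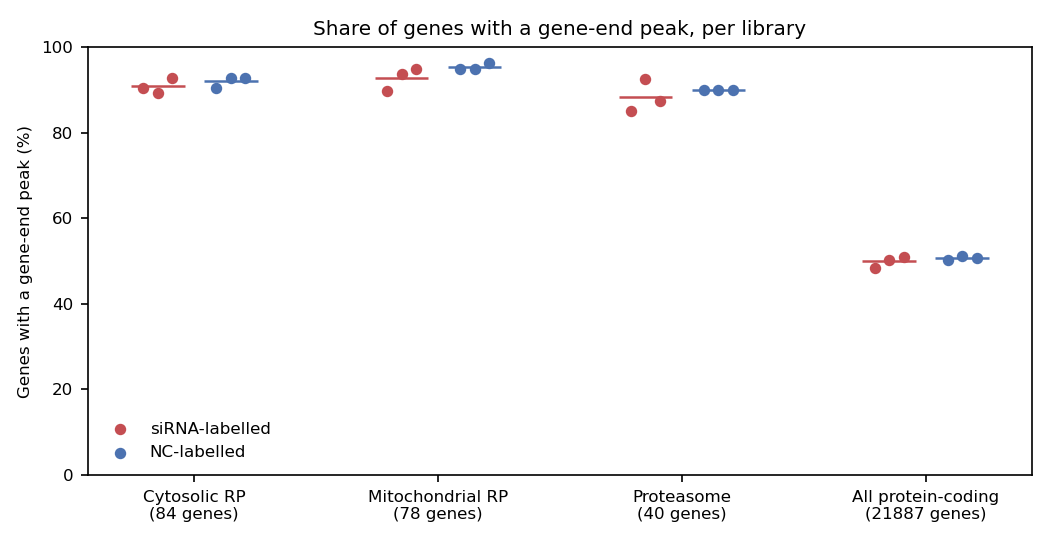
The percentage of genes with a gene-end peak (y axis) in each siRNA-labelled library (red) and each NC-labelled library (blue) for 4 sets of genes, with a line at each group's mean. Cytosolic ribosomal protein genes lie between 89.3% and 92.9% in every library, near mitochondrial ribosomal protein and proteasome genes and above the 48.4% to 51.1% of all protein-coding genes.

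Compared with all genes that had a gene-end peak, the ribosomal protein genes had slightly lower fold and q ranks and about equal fragments. Median summit fragments of members were 26.5, 30 and 34 in siRNA-labelled libraries 1 to 3 and 39, 36 and 34 in NC-labelled libraries 1 to 3. Over all genes with a peak they were 27, 29 and 32 in the siRNA-labelled and 35, 37 and 33 in the NC-labelled libraries, so the members' median was the higher in 4 of the 6 lists. The authors' fold enrichment at the summit over local background had a median over members of 7.29, 7.65 and 7.66 in siRNA-labelled libraries 1 to 3, and of 7.65, 7.68 and 7.49 in NC-labelled libraries 1 to 3. Over all protein-coding genes with a peak the medians were 7.61, 8.23 and 8.24 in the siRNA-labelled and 7.89, 8.16 and 7.90 in the NC-labelled libraries. In each of the 6 lists the members' median fold was thus slightly the lower.

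The −log10 of the authors' q-value followed the same order, with medians over members of 13.5, 17.2 and 17.3 in the siRNA-labelled and 19.6, 20.1 and 18.2 in the NC-labelled libraries. All genes with a peak had medians of 15.5, 18.1 and 19.3 in the siRNA-labelled and 20.3, 22.0 and 19.3 in the NC-labelled libraries. Because this value grows with coverage, it was read as a rank within a list. The median member stood at the 70.2nd to 75.6th percentile of all peaks of its list in the siRNA-labelled libraries and at the 74.7th to 75.2nd in the NC-labelled libraries, and the median gene with a peak stood at the 74.8th to 78.0th in the siRNA-labelled and the 76.1st to 77.1st in the NC-labelled libraries.

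The number of fragments at the summit, solved from the authors' fold and p-value, gives the counts behind these values. For the 72 members with a peak in all 6 libraries, the mean over the libraries ran from 9 to 148 fragments with a median of 36.1, against 36.5 for all 9638 genes with a peak in all 6. A mean of 50 or more was reached by 31.9% of these members and 32.9% of these genes, and a mean under 20 was found for 18.1% and 18.6%. The 72 passed a filter on presence and do not stand for all 84.

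**Figure D2:**
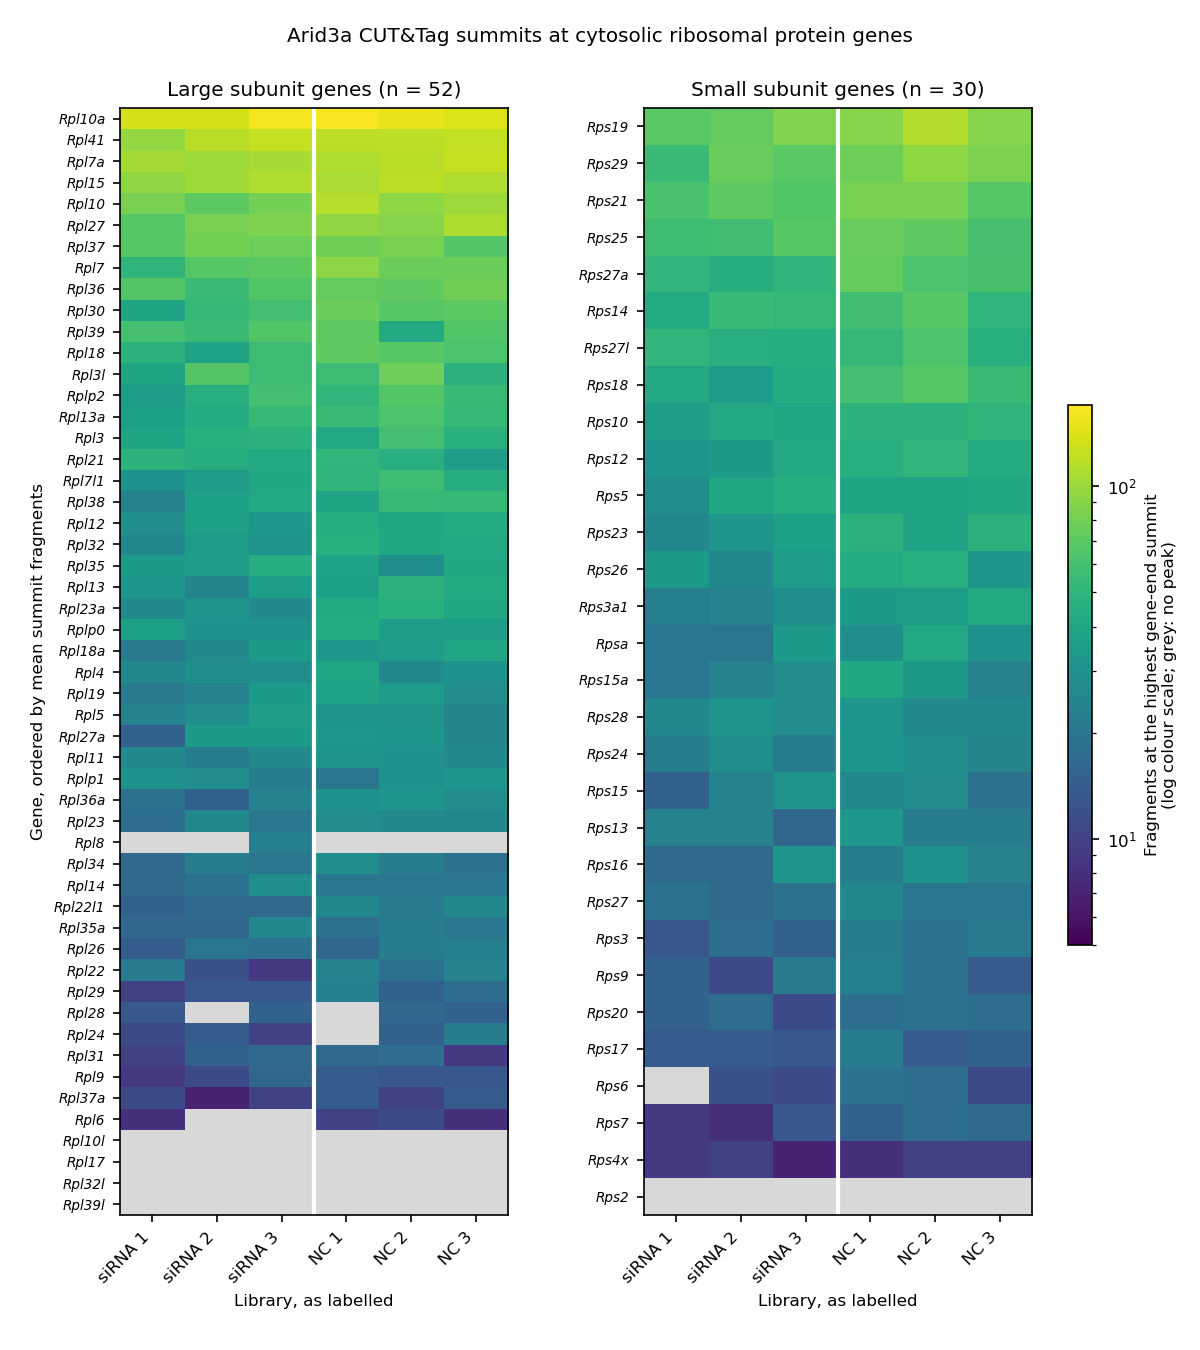
Fragments at the highest gene-end summit (colour, log scale) for the 52 large subunit genes and 30 of the 32 small subunit genes (rows, ordered by mean) in the siRNA-labelled libraries (left of the white line) and the NC-labelled libraries (right of it), grey where there was no peak. Rows differ far more than columns: Rpl10a stays at 135 fragments or more and Rps4x at 10 or fewer in every library, and 5 genes, Rps2 and Rpl17 with their peaks inside the gene among them, are grey throughout.

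The strongest summits belonged to large subunit genes. Rpl10a, whose protein forms the L1 stalk beside the exit site of tRNA, had 136, 135 and 159 fragments in siRNA-labelled libraries 1 to 3 and 165, 152 and 141 in NC-labelled libraries 1 to 3. The fold there was 10.2 ± 0.27 in the siRNA-labelled and 8.58 ± 0.11 in the NC-labelled libraries (SD, n = 3 each), and −log10 q lay between 78.2 and 101. Its peak, joined over the 6 libraries as chr17:28327241-28328660 in mm10, covers the annotated start of Rpl10a and also lies at an end of the neighbouring gene Fance. The summit lay a median of 729 bp upstream of that start.

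Rpl7a, which encodes another large subunit protein, had 105, 103 and 107 fragments in the siRNA-labelled and 111, 116 and 125 in the NC-labelled libraries. For Rpl15 the summits held 95, 103 and 112 fragments in the siRNA-labelled and 108, 119 and 112 in the NC-labelled libraries, with the highest fold of these genes at 16.8 ± 1.07 and 15.1 ± 0.64 (SD, n = 3 each). Rpl41, which encodes a very short basic peptide of the large subunit, had 96, 116 and 124 fragments in the siRNA-labelled and 119, 120 and 123 in the NC-labelled libraries. That summit lay a median of 1175 bp downstream of its start, near the far bound of the gene and at an end of Zc3h10. Before scaling for coverage, the groups overlap for Rpl10a, Rpl15 and Rpl41, and every siRNA-labelled library is lower for Rpl7a.

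Rpl10, an X-linked gene for a protein that joins the large subunit late in its assembly, had 82, 70 and 81 fragments in the siRNA-labelled and 115, 94 and 101 in the NC-labelled libraries. Before scaling the siRNA-labelled values are all lower. All 4 X-linked members (Rpl10, Rpl36a, Rpl39 and Rps4x) had a peak in every library.

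At the low end, Rps4x, the X-linked gene for small subunit protein S4, had 9, 10 and 7 fragments in siRNA-labelled libraries 1 to 3 and 8, 10 and 10 in NC-labelled libraries 1 to 3. Rpl37a had 11, 7 and 10 fragments in the siRNA-labelled and 14, 10 and 14 in the NC-labelled libraries. Rpl31 had 10, 15 and 17 fragments in the siRNA-labelled and 17, 18 and 9 in the NC-labelled libraries. At such counts a change of a few fragments is within counting error, and the groups overlap for all 3 genes.

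Among members whose median summit lay within 250 bp of a listed start, the promoters of the 5 with the highest and the 3 with the lowest smallest summit are shown first, to set strong and weak peaks side by side. Rpl9 and Rpl31 tied with Rpl22 at a smallest summit of 9 fragments and are not shown. The stretch of Rpl22 lies outside its peaks. Their region, chr4:152325119-152326256, begins downstream of the stretch, near another listed start inside the gene. The stretches run from 120 bases before the start to 20 bases after it, 5′ to 3′ on the gene's strand, from RefSeq on GRCm38.p6. Capitals mark the letters GGGCGG (GC box), CCGGAAG (ETS or GABP) and CCAAT (NFY) or their reverse complements, and for Rpl39 the letters TATAAA.
Rpl27, chr11:101442125-101442264, plus strand: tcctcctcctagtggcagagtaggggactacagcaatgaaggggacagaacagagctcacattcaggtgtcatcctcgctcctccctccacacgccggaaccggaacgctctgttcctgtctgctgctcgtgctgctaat
Rpl37, chr15:5116493-5116632, plus strand: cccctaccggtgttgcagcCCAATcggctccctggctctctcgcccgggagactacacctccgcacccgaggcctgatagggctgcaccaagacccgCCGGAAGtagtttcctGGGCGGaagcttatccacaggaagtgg
Rps21, chr2:180257259-180257398, plus strand: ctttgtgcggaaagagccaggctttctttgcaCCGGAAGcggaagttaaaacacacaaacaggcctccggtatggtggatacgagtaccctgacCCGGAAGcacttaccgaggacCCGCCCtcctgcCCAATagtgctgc
Rps27l, chr9:66945966-66946105, plus strand: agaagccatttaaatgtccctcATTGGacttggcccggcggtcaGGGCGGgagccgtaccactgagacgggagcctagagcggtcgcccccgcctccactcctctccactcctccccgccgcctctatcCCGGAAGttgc
Rpl39, chrX:37085203-37085342, minus strand: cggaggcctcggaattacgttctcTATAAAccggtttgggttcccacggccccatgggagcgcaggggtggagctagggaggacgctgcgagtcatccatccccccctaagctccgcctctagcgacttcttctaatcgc
Rps4x, chrX:102189372-102189511, minus strand: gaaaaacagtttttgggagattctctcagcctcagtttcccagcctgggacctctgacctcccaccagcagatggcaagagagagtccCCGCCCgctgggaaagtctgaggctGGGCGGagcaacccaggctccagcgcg
Rps7, chr12:28635934-28636073, minus strand: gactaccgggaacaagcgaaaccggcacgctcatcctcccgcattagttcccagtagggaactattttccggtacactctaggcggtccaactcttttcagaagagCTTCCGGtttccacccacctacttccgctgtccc
Rpl22, chr4:152324316-152324455, plus strand: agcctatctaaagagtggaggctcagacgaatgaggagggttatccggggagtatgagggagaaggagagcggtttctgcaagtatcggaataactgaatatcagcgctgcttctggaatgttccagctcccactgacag

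Rpl27 had 67, 83 and 86 fragments in the siRNA-labelled and 95, 90 and 110 in the NC-labelled libraries, and Rpl39 had 60, 55 and 65 in the siRNA-labelled and 71, 43 and 65 in the NC-labelled libraries. Rpl37 had 68, 81 and 78 fragments in the siRNA-labelled and 79, 84 and 66 in the NC-labelled libraries, and Rps21 had 62, 71 and 65 in the siRNA-labelled and 83, 82 and 67 in the NC-labelled libraries. Rps27l, a paralog of Rps27 that p53 is known to activate, had 51, 46 and 45 fragments in the siRNA-labelled and 52, 63 and 47 in the NC-labelled libraries. Rps7 had 9, 8 and 13 fragments in the siRNA-labelled and 15, 18 and 17 in the NC-labelled libraries. Rpl22 had 21, 12 and 9 fragments in the siRNA-labelled and 24, 19 and 24 in the NC-labelled libraries, and its 9 fragments lay at the other end of the gene. Of the 5 promoters with high summits, those of Rpl37, Rps21 and Rps27l hold a GC box, the ETS letters and the NFY letters in this stretch. In the same stretch that of Rpl39 holds TATAAA alone and that of Rpl27 none of the letters marked. Of the 3 with low summits, the stretch of Rps4x holds GC boxes and that of Rps7 the ETS letters. That of Rpl22, which its peaks do not cover, holds none. The longer promoters searched below hold further letters: ETS for Rpl39, a GC box for Rpl27 and NFY for Rps4x. They also hold AAGATGG (YY1) for Rps7, and AAGATGG and TATAAA for Rpl22. Those of Rpl37, Rps21 and Rps27l hold no further kind of letters.

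No gene-end peak was found in any library at Rpl10l, Rpl17, Rpl32l, Rpl39l and Rps2. Of these, Rpl10l and Rpl39l are paralogs used mainly in the testis, whereas Rpl17, a protein of the nascent chain tunnel, and Rps2, a protein at the mRNA entry of the small subunit, belong to the standard ribosome. Rpl17 and Rps2 had peaks inside the gene, while Rpl10l, Rpl32l and Rpl39l had none there either. The same stretch as above is shown for Rpl39l and Rps2, Rpl39l as a promoter with no peak and Rps2 because its peak covers this stretch.
Rpl39l, chr16:10170108-10170247, plus strand: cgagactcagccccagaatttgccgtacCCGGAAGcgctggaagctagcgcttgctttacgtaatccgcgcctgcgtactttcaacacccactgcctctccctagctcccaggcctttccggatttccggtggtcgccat
Rps2, chr17:24719943-24720082, plus strand: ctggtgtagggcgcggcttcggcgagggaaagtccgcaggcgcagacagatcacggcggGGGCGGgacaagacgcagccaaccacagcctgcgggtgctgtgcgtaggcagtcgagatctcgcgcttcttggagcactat

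Rps2 had a peak over its listed start in every library, missed by the windows because the annotated gene bounds lie 1864 bp or more from that start. Its summits held 37, 44 and 71 fragments in siRNA-labelled libraries 1 to 3 and 70, 64 and 51 in NC-labelled libraries 1 to 3, with a fold of 4.65, 5.39 and 7.65 in the siRNA-labelled and 6.27, 5.81 and 4.90 in the NC-labelled libraries. Rpl17 had lower peaks inside the gene, of 16, 12 and 22 fragments in the siRNA-labelled and 21, 21 and 22 in the NC-labelled libraries. The groups overlap for both genes, and neither was in the test below.

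Of the 7 members with a peak in some libraries, the 5 described here had summits of 8 to 23 fragments. Rps6, the substrate of S6 kinase, had no peak in siRNA-labelled library 1, 12 and 11 fragments in siRNA-labelled libraries 2 and 3, and 19, 18 and 11 in NC-labelled libraries 1 to 3. Rpl6, a large subunit protein, had 8 fragments in siRNA-labelled library 1 and no peak in libraries 2 and 3, and 10, 11 and 8 in the NC-labelled libraries. The −log10 q of the listed peaks of these 2 genes ran from 2.12 to 12.9, and the lowest in any list was 1.30 to 1.32, so a missing peak cannot be told apart from a summit just under the threshold.

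Rpl24 had 11, 14 and 10 fragments in the siRNA-labelled libraries, no peak in NC-labelled library 1, and 15 and 22 in NC-labelled libraries 2 and 3. Rpl28 had 13 and 15 fragments in siRNA-labelled libraries 1 and 3 and none listed in library 2, and 16 and 15 in NC-labelled libraries 2 and 3 and none listed in library 1. Rpl8, whose protein sits near the peptidyl transferase centre, had a peak of 23 fragments in siRNA-labelled library 3 alone. Each of the 6 libraries lacked a peak at 1 or more of these 5 genes.

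By role, the 3 genes of the P stalk, which recruits translation factors to the large subunit, all had a peak in every library. Rplp0, the stalk's base, had 37, 30 and 30 fragments in siRNA-labelled libraries 1 to 3 and 44, 36 and 36 in NC-labelled libraries 1 to 3. Rplp1 had 30, 28 and 22 fragments in the siRNA-labelled and 20, 30 and 32 in the NC-labelled libraries. Rplp2 had 35, 46 and 59 fragments in the siRNA-labelled and 51, 66 and 54 in the NC-labelled libraries. The groups overlap for all 3 after scaling to each library's median.

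Rpl5 and Rpl11, whose proteins bind 5S RNA and, when ribosome assembly is disturbed, the p53 inhibitor Mdm2, had summits of similar height. Rpl5 had 24, 28 and 36 fragments in the siRNA-labelled and 31, 31 and 25 in the NC-labelled libraries, and Rpl11 had 27, 22 and 27 in the siRNA-labelled and 31, 30 and 27 in the NC-labelled libraries. For Rpl11 these summits lay at the far end except in NC-labelled library 1, so different peaks are set against each other. At its start the summits held 16, 16 and 19 fragments in the siRNA-labelled and 31, 29 and 22 in the NC-labelled libraries. The start peak was not tested by itself. Rpsa, a small subunit protein also described as a laminin receptor, had 20, 20 and 34 fragments in the siRNA-labelled and 29, 42 and 30 in the NC-labelled libraries.

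The 4 paralogs with a peak had one in all 6 libraries. Rpl3l, the paralog of Rpl3 used in striated muscle, had 39, 66 and 56 fragments in the siRNA-labelled and 56, 78 and 48 in the NC-labelled libraries. That summit lay 358 bp from the far bound of the gene and at an end of Msrb1, and a median of 3816 bp downstream of the nearest listed start, which is inside the gene. The bound at which transcription of Rpl3l starts had no peak in any library. Rpl7l1 had 30, 35 and 41 fragments in the siRNA-labelled and 50, 57 and 45 in the NC-labelled libraries, again at the far end in every library but siRNA-labelled 2. Rpl22l1, the paralog of Rpl22, had 15, 17 and 17 fragments in the siRNA-labelled and 26, 21 and 26 in the NC-labelled libraries, at its start.

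A start with its strand was listed for 64 members, of which 60 had a peak. The highest summit lay within 250 bp of a listed start at 41 of the 60 (68.3%), against 64.1% of the 10059 protein-coding genes with a start and a peak. The median summit lay 40.3 bp upstream of the start for members, with quartiles at -210 and 91 bp, and 12 bp downstream for all genes, with quartiles at -165 and 174 bp. Summits lay downstream of the start at 43.3% of members and 51.9% of genes.

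**Figure D3:**
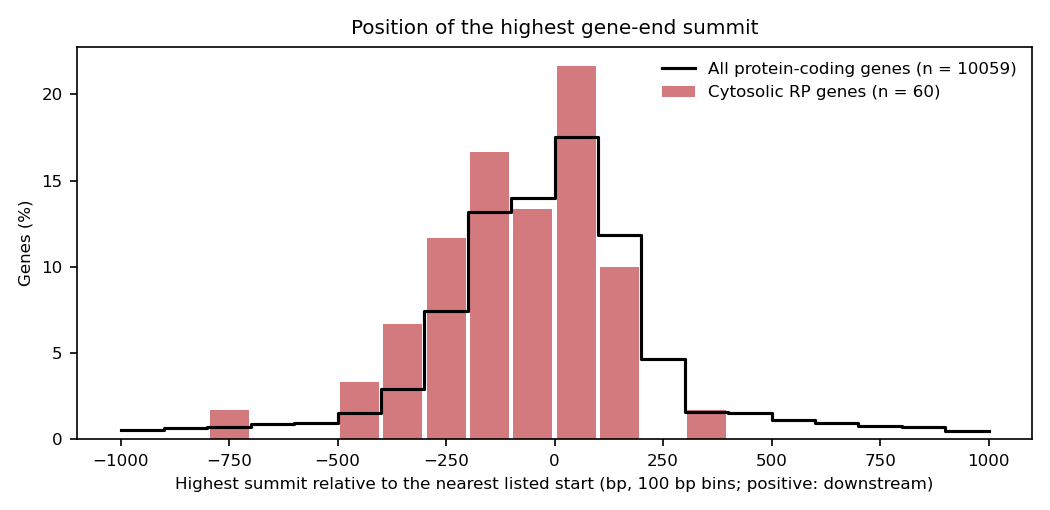
Percentage of genes (y axis) by the distance of the highest gene-end summit from the nearest listed start (x axis, bp, in 100 bp bins, positive downstream), for 60 cytosolic ribosomal protein genes (bars) and 10059 protein-coding genes (line). Both peak in the first bins around the start, and summits over 1000 bp away are not drawn.

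At 8 members the highest summit lay over 1000 bp from the listed start: Rpl3l, Rpl4, Rpl7l1, Rpl11, Rpl18, Rpl19, Rpl41 and Rps18. For Rpl18 and Rpl19 the listed start lies inside the annotated gene, and the peak sat near its outer bound. Counting only the annotated bound at which transcription starts, 54 of 64 members (84.4%) had a peak in all 6 libraries, against 42.7% of 17492 genes, and counting only the other bound, 8 (12.5%), against 4.99%. Among the 8 are the short genes Rpl41, Rps21 and Rps27, where both bounds gave the same fragments in every library. At Rpl3l, Rpl4, Rpl7l1, Rpl41, Rps18, Rps21 and Rps27, all of the 8 but Rpl11, the highest peak also fell at an end of another gene. How often either holds over all genes was not counted. Around any listed start within 1000 bp, 56 of 64 members (87.5%) had one, against 46.0%. The summits farthest from either annotated end were those of Rpl22 (1299 bp), Rps27l (1238 bp) and Rpl38 (1090 bp), whose summits nevertheless lay 154, -224 and 328 bp from a listed start.

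The highest peak of 23 members also fell at an end of another protein-coding gene, as for Rpl10a with Fance, Rpl7a with Med22, Rpl15 with Nkiras1 and Rpl41 with Zc3h10. Of these 23, 22 had a peak in all 6 libraries with a median of 54.5 fragments, against 50 of the 56 members with an unshared peak and a median of 30.3. A peak between a pair of genes cannot be assigned to either from its position. Small nucleolar RNA genes, which guide modification of ribosomal RNA, lie within 30 members, and 25 of these 30 (83.3%) had a peak in all 6 libraries, against 47 of the 54 others (87.0%).

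The letters of the 64 listed promoters, each 300 bases long, were searched on both strands. The GC box occurred in 59.4% of them against 46.3% of all 17492 protein-coding promoters, and the ETS letters in 39.1% against 11.9%. The YY1 letters AAGATGG occurred in 15.6% of members' promoters against 6.35% of all. For the NFY letters the shares were 29.7% and 39.2%, and for the TATA box, TATAAA, they were 12.5% and 13.3%. The ETS and YY1 letters can overlap by 3 bases, but in no member were they joined in this way.

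AATTAA, the AT-rich core of ARID3A sites, was found in the promoters of 2 members (3.13%), against 9.82% of all promoters. They are shown because they are the members that hold these letters, here as the reverse complement TTAATT in capitals.
Rpl13, chr8:123102176-123102241, plus strand: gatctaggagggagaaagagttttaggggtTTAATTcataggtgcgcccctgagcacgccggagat
Rps9, chr7:3703803-3703868, plus strand: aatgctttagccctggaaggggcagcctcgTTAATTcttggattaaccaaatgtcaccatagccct

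Rpl13 had 32, 25 and 36 fragments in the siRNA-labelled and 37, 48 and 43 in the NC-labelled libraries, and Rps9 had 15, 11 and 21 in the siRNA-labelled and 23, 19 and 14 in the NC-labelled libraries. The letters at Rpl13 lie outside its peaks, which joined over the 6 libraries span chr8:123102295-123102821. Those at Rps9 lie within its joined peaks, chr7:3703678-3704343. The other 54 members with a listed promoter and a peak in all 6 libraries had a median of 30.8 fragments. No match says only that the letters are not in this window of 300 bases.

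A TOP start, here a C followed by at least 5 C or T from the listed start on, was found at 11 of the 64 members (17.2%), against 1.58% of all protein-coding genes with a listed start. The first 12 bases are shown for 4 of them, with the pyrimidine run in capitals.
Rpl15, chr14:18270975-18270986, minus strand: CTTCCTTTCCTC
Rpl35, chr2:39005120-39005131, minus strand: CTCTTTCTCTCg
Rpl38, chr11:114668580-114668591, plus strand: CTTTCCCCgttc
Rps6, chr4:86857356-86857367, minus strand: CTCTTTTTCgtg

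Of the 11, 8 had a peak in all 6 libraries, with a median of 39.3 fragments, against 48 of the 53 without such a start and a median of 30.1. Those without a full set of peaks were Rpl28, Rpl32l and Rps6. Listed starts that are off by a few bases would hide the motif, so the share is a count of listed starts and not of TOP mRNAs.

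The comparison of siRNA-labelled with NC-labelled libraries asked whether signal at these genes differed with the siRNA. Summit fragments were set to each library's median over the 9638 genes with a peak in all 6 libraries and tested with limma. Of these genes 14 passed an adjusted p of 0.05 (0.145%), 10 lower (0.104%) and 4 higher (0.0415%) in the siRNA-labelled libraries. None of the 72 members tested was among them. The smallest adjusted p of a member in limma was 0.41, for Rpl37, and 4 members had an unadjusted p under 0.05 (Rpl10a, Rpl21, Rpl35 and Rpl37), which is 5.56% against 10.2% of all genes tested.

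Signed differences of the members were balanced, with 37 positive and 35 negative and a median log2 difference of 0.02, against 0.01 over all genes. They ran from -0.42 to 0.37, with standard errors of 0.095 to 0.27. The median standard deviation of log2 fragments between libraries of a group was 0.187 in the siRNA-labelled and 0.158 in the NC-labelled libraries for members, and 0.184 and 0.156 for all genes, while the median size of the difference was 0.13 for members and 0.14 for all genes. Fewer cells with signal at a gene and fewer fragments per cell cannot be told apart in such libraries.

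**Figure D4:**
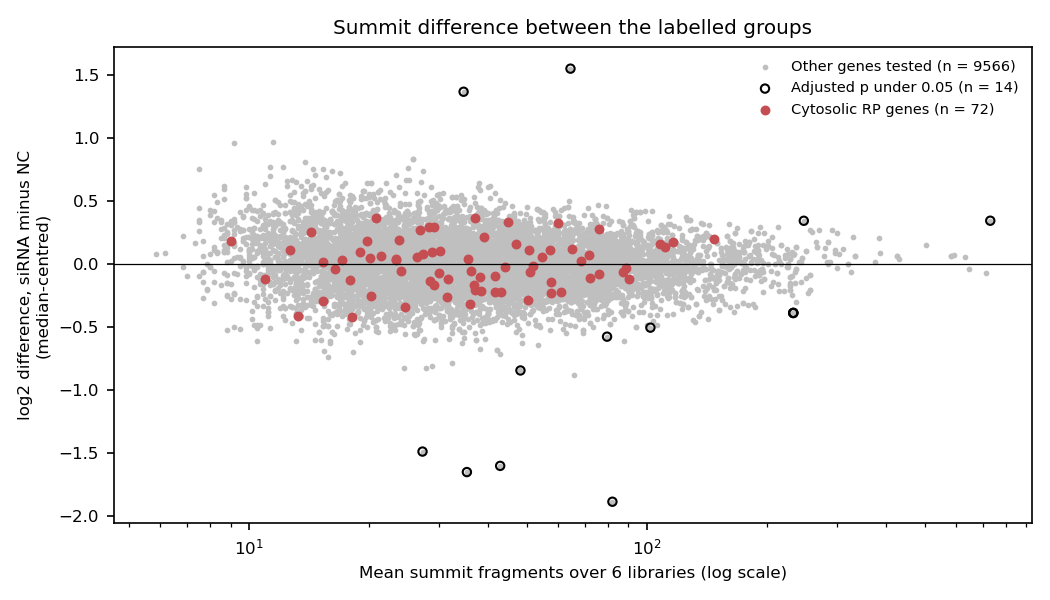
The log2 difference of summit fragments, siRNA-labelled minus NC-labelled after median centring (y axis), against the mean fragments over the 6 libraries (x axis, log scale), for 72 cytosolic ribosomal protein genes (red), 9566 other genes (grey) and the 14 genes with an adjusted p under 0.05 (ringed). All red points lie between -0.42 and 0.37 and none is ringed.

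Direction depended on the scaling. With libraries scaled by their background coverage instead, 23 of the 72 members were lower in the siRNA-labelled libraries and the median difference was 0.13 (0.11 over all genes), with 2 genes passing as lower and 5 as higher. With no scaling, 66 of 72 were lower and the median was -0.27 (-0.28 over all genes), with 703 genes lower and 2 higher, Rpl23a and Rps18 among the lower. Each of these scalings moves every gene's difference by the same amount. The members' median therefore lay within 0.02 of that of all genes in each by construction, and the scalings are not separate results. The count of 14 genes moved to 157 without siRNA-labelled library 1, to 2 without NC-labelled library 2, and to 4 to 7 without any of the other libraries, and no member passed in any of these.

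Scaled fragments of the groups did not overlap at 11 members. Lower in every siRNA-labelled library were Rpl7l1, Rpl23a, Rpl36a, Rps3a1, Rps7 and Rps18, which is 8.33% of the members tested against 7.24% of all genes. For Rpl7l1 and Rps18 the summit lay at the start in siRNA-labelled library 2 and at the far end in every other library. Different peaks are thus set against each other for these genes, and their highest peaks also fell at an end of another gene. Higher in every siRNA-labelled library were Rpl5, Rpl14, Rpl15, Rpl37 and Rpl41, which is 6.94% against 7.90%. Both shares lie near those of all genes. Before scaling, 26 members were lower in every siRNA-labelled library (36.1% against 31.3%) and 0 higher (0.280% of all genes).

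Of the 5 members with the most negative differences, Rpl22 and Rps7 came first. Rpl22, which encodes a large subunit protein that cells can do without, had 25.9, 13.1 and 9.02 scaled fragments in siRNA-labelled libraries 1 to 3 and 21.7, 16.4 and 22.8 in NC-labelled libraries 1 to 3, a log2 difference of -0.42 ± 0.26 (SE) with an adjusted p of 0.59 in limma. One siRNA-labelled library was the highest and another the lowest of the 6. That lowest value, in siRNA-labelled library 3, comes from a peak at the other end of the gene, 7324 bp from the nearest listed start. The region nearer the start, chr4:152325119-152326256, held a peak in all 6 libraries. In siRNA-labelled library 3 that peak fell outside the window of 1000 bp, so different peaks are set against each other. The difference was -0.19 with 1 region per gene and -0.10 without siRNA-labelled library 3. Rps7, a small subunit protein, had 11.1, 8.72 and 13.0 scaled fragments in the siRNA-labelled and 13.6, 15.5 and 16.2 in the NC-labelled libraries, a difference of -0.42 ± 0.23 (SE; limma adjusted p = 0.55). Its groups did not overlap, but the gap was under 1 fragment.

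Rpl36a had 23.5, 16.4 and 24.0 scaled fragments in the siRNA-labelled and 27.1, 27.6 and 26.6 in the NC-labelled libraries. Rpl23a, a protein at the mouth of the nascent chain tunnel, had 33.4, 33.8 and 27.1 scaled fragments in the siRNA-labelled and 38.9, 40.5 and 39.0 in the NC-labelled libraries. For Rpl29 the values were 12.4, 14.2 and 13.0 scaled fragments in the siRNA-labelled and 20.8, 12.9 and 17.1 in the NC-labelled libraries. The log2 differences of these 3 genes were -0.34 ± 0.19, -0.32 ± 0.16 and -0.30 ± 0.23 (SE), with limma adjusted p-values of 0.56, 0.51 and 0.68.

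Among the 5 most positive, Rpl35, another protein at the tunnel's mouth, had 42.0, 38.2 and 45.1 scaled fragments in the siRNA-labelled and 34.4, 25.0 and 39.0 in the NC-labelled libraries, a difference of 0.37 ± 0.17 (SE; limma adjusted p = 0.45). Rpl14 had 21.0, 20.7 and 29.1 scaled fragments in the siRNA-labelled and 18.1, 17.2 and 19.0 in the NC-labelled libraries. Rpl21 had 60.5, 49.1 and 42.1 scaled fragments in the siRNA-labelled and 46.1, 39.7 and 34.2 in the NC-labelled libraries. Only for Rpl14 of these 3 did the groups not overlap.

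Rpl39, which lines the nascent chain tunnel, had 74.1, 60.0 and 65.1 scaled fragments in the siRNA-labelled and 64.2, 37.1 and 61.8 in the NC-labelled libraries, with NC-labelled library 2 the lowest of the 6 and a difference of 0.07 without it. Rpl5, of the 5S particle above, had 29.7, 30.5 and 36.1 scaled fragments in the siRNA-labelled and 28.0, 26.7 and 23.8 in the NC-labelled libraries. The log2 differences of Rpl14, Rpl21, Rpl39 and Rpl5 were 0.36 ± 0.20, 0.33 ± 0.16, 0.32 ± 0.16 and 0.29 ± 0.18 (SE), with limma adjusted p-values of 0.55, 0.47, 0.49 and 0.59. The 10 genes were picked for the size of these differences, which are therefore given as a description.

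**Figure D5:**
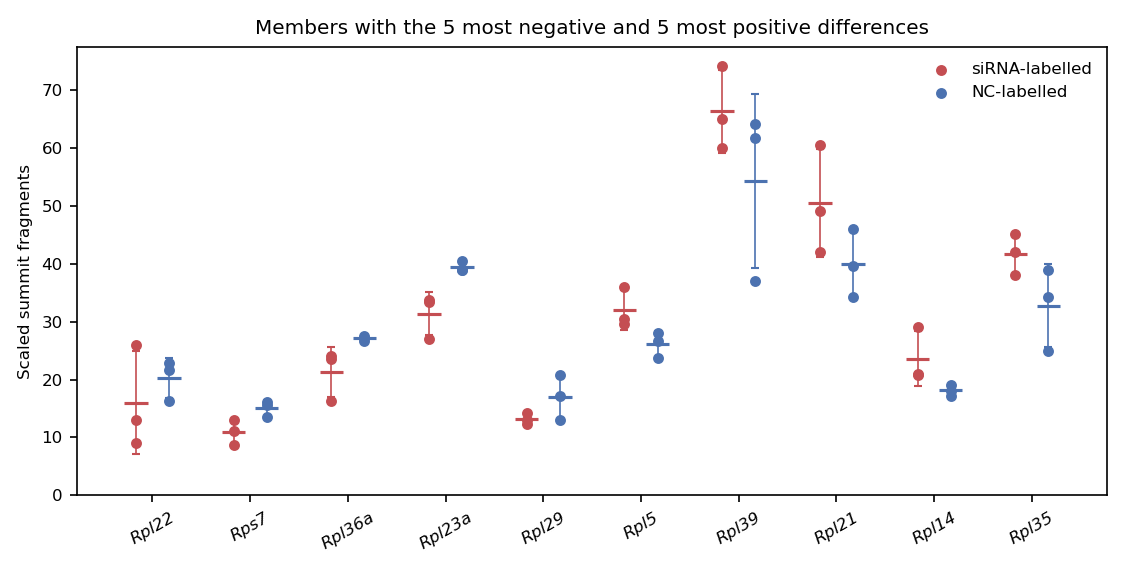
Scaled summit fragments (y axis) of the 5 members with the most negative and the 5 with the most positive differences, in the siRNA-labelled libraries (red, left of each pair) and the NC-labelled libraries (blue), with the mean and SD of 3 libraries. Points of both groups overlap for Rpl22, Rpl29, Rpl39, Rpl21 and Rpl35, and none of the 10 passed the test.

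Lists of other genes that make or degrade proteins, set out beside the members, gave counts of like size. Of 78 mitochondrial ribosomal protein genes 70 (89.7%) had a peak in all 6 libraries, of 40 proteasome subunit genes 33 (82.5%), of 17 ribosome biogenesis genes 16, and of 18 translation factor genes 18. None of these lists held a gene that passed the test other than Eef1b2, a subunit of elongation factor 1, with 108, 68 and 71 fragments in the siRNA-labelled and 101, 15 and 23 in the NC-labelled libraries. Its log2 difference was 1.55 ± 0.33 (SE; limma adjusted p = 0.039), but no single region at its ends had a peak in all 6 libraries, so different peaks are set against each other, and the adjusted p was 0.50 without limma's trend and 0.39 without NC-labelled library 2.

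Fau, which encodes a small subunit protein fused to a ubiquitin-like part and falls outside the symbol rule, had 40, 41 and 44 fragments in the siRNA-labelled and 52, 54 and 40 in the NC-labelled libraries. Myc, a transcription factor that drives ribosome production, had 77, 96 and 98 fragments in the siRNA-labelled and 126, 132 and 116 in the NC-labelled libraries, with a scaled log2 difference of -0.18 ± 0.11 (SE; limma adjusted p = 0.58). Larp1, which binds TOP mRNAs, had a peak of 6 fragments in siRNA-labelled library 3 alone. The elongation factor genes Eef1a1 and Eef2 and the nucleolar protein genes Npm1 and Ncl had a peak in every library, with limma adjusted p-values between 0.82 and 0.96.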

How the data were processed

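Each library has its own deposited peak list, and no pooled calls were used. Per the submitters' processing notes, Bowtie2, Picard and MACS2 were used with mm10, while their versions, options and handling of reads that match several places are not given in those sources. For each peak the authors deposited a score, the summit's fold over local background (a ratio), its p-value and q-value as −log10, and the summit position. Score was not analysed further.

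Whole summit fragments and local background were solved from the authors' fold and −log10 p with a relative tolerance of 0.0001, for 100% of peaks of each list, and the solver was tested on simulated data. Total reads were not used, so depth is known only through background coverage. Gene ends came from the RefSeq genes of GRCm38.p6 (mm10), with windows of 1000 bp, and starts, strand and promoters from RefSeq promoters of the same build, which matched 64 of 84 members. Where several starts were listed the nearest counted. Each gene's highest gene-end summit per library was used as log2(fragments + 1), centred on the library's median, and tested two-sided with limma 3.58.1 (trend, R 4.3.3) over all 9638 genes with a peak in all 6 libraries, with Benjamini-Hochberg adjustment. An exact test of 3 against 3 libraries cannot go below 0.1 and was not used. The members and lists were chosen with earlier results of these data known. Members were named if they lacked a peak in any library, were among the 5 highest or lowest by their smallest summit, had 1 of the 5 largest differences either way, had 1 of the 3 summits farthest from a gene end, were a P stalk gene, Rpsa, a paralog, Rps6, Rpl5 or Rpl11, and further genes were named after their values were seen for shown sequences, shared peaks and non-overlapping groups. Some genes that this rule names are not reported here. All 6 libraries were kept apart. Same replicate numbers were not taken as pairs. Alternatives were other windows, scalings, pseudocounts, filters and peaks, a replicate block, and leaving out each library.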

Additional observations from a re-analysis of the deposited data

Results flagged for a closer look

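Each peak in a list has a name made from a library name and a running number. In 6 of the 6 lists that library name belongs to the opposite group: siRNA-labelled lists name NC libraries, and NC-labelled lists name siRNA libraries. These names are outside the measurements used above. They would turn every sign given for the ribosomal protein genes, though not their presence, position or rank within a list. Which of the names is right was not tested.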

How the results depend on the processing

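No member passed the test under any alternative except no scaling, where 2 did, Rpl23a (log2 difference -0.61, limma adjusted p = 0.044) and Rps18 (-0.57, limma adjusted p = 0.042). For Rps18 the summit lay at the start in siRNA-labelled library 2 and at the far end in every other library. The 10 members named for their differences kept their sign wherever they could be fitted. Their size moved by over 1.5 times without 1 library for 8 of them: Rpl22 (-0.42) became -0.82 and -0.10 without siRNA-labelled libraries 1 and 3, Rpl29 (-0.30) -0.14 and -0.47 without NC-labelled libraries 1 and 2, Rpl36a (-0.34) -0.17 and Rps7 (-0.42) -0.28 without siRNA-labelled library 2, Rpl35 (0.37) 0.19 and Rpl39 (0.32) 0.07 without NC-labelled library 2, Rpl14 (0.36) 0.21 without siRNA-labelled library 3, and Rpl21 (0.33) 0.19 without siRNA-labelled library 1. With no scaling the 5 negative ones ran from -0.71 to -0.59 and the 5 positive ones from 0.0036 to 0.079. The 14 genes passing among all genes became 0 with the authors' fold in place of fragments, 1 without limma's trend, 4 with windows of 2000 bp, 6 with siRNA-labelled libraries 2 and 3 averaged, 7 with background scaling, 8 with a mean of at least 20 fragments, 25 with a pseudocount of 5 and 705 with no scaling. Leaving out 1 library gave 2 to 157 genes: 157, 4 and 4 without siRNA-labelled libraries 1, 2 and 3, and 7, 2 and 7 without NC-labelled libraries 1, 2 and 3. Without siRNA-labelled library 1, 42 of 72 members were negative. The cause of these changes was not tested.

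With the replicate number as a block, 48 genes passed, 37 lower and 11 higher in the siRNA-labelled libraries, and 0 members. Same-numbered libraries deviated together with correlations of 0.05, 0.05 and -0.04, and not every library correlated best with its own number, so the numbers were not taken as pairs.

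Members with a peak in all 6 libraries numbered 64 with peaks of −log10 q of at least 5, 68 with windows of 500 bp or with the summit required in the window, 76 with windows of 2000 bp, 74 with peaks anywhere in the gene (an alternative chosen after seeing the data), and 72 to 74 without 1 library. Depth limits the low summits: the median peak held 16 fragments in the siRNA-labelled and 18 to 20 in the NC-labelled libraries, and a median standard error of 0.17 leaves small differences at single members undetectable.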

Other observations

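Ribosomal protein genes have many pseudogenes, mostly copies of the mRNA put back into the genome without the promoter. Of 318 annotated pseudogenes named after cytosolic ribosomal proteins, 288 had no gene-end peak in any library and 10 (3.14%) had one in all 6, against 252 of 10111 other pseudogenes (2.49%). Away from protein-coding genes, the counts were 6 of 235 (2.55%) for ribosomal protein pseudogenes and 130 of 7541 (1.72%) for the others. The ribosomal protein genes themselves had such a peak at 72 of 84 loci.

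The ribosomal protein genes are short, with a median length of 3179 bp against 17169 bp for all protein-coding genes, so their windows at both ends cover more of the gene. Their listed promoters had a median of 21 CpG dinucleotides per 300 bases, against 13 for all protein-coding promoters, at a similar median GC content of 57.0% and 56.3%. The part of length and CpG content in the share of members with a peak was not tested.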
